A study of Mus musculus with 24 samples.

Results

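The genes described are the cadherins and protocadherins of the mouse, the adhesion receptors of the cadherin superfamily whose symbols begin with Cdh and a number or with Pcdh, without Cdh5 and Cdh19. Of the 21833 protein-coding genes of the expression table, 90 met this rule. They comprised 5 type I cadherins, 11 type II cadherins, 5 other Cdh genes, 12 unclustered protocadherins and the protocadherins of the alpha (14), beta (22) and gamma (21) clusters. A gene was tested if 3 or more libraries reached 0.1 FPKM, which left 74 members, among them all 22 beta genes but 6 of 14 alpha genes. A member that is expressed in 1 group passes this filter through that group, so the counts below refer to tested members and not to the families as a whole.

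Poly(A)-selected RNA of mouse adrenal glands and neuroblastoma tumors was sequenced in 24 libraries. The AG group held adrenal glands from mice without Cre (n = 3). AGM were tumor-free adrenal glands of Cre-positive mice heterozygous for a MYCN transgene (n = 5), taken at about a year of age. TI were tumors of Cre-positive mice with an IGF2BP1 transgene (n = 8, of which 1 was heterozygous and 7 were homozygous), and TIM were tumors of Cre-positive mice with IGF2BP1 (IMP1 in the labels) and MYCN transgenes (n = 8). Both transgenes sat at Rosa26 behind a stop cassette. An iCre recombinase under the Dbh promoter removes the cassette in cells that express Dbh, and the mice were backcrossed to C57Bl6/N. One TI and 2 TIM tumors were taken from the adrenal gland and 1 TIM tumor from the spine, but the columns of the table did not show which.

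Cadherins are calcium-dependent receptors that join cells by binding the same or a related cadherin on a neighbour. The type I and type II (classical) cadherins hold junctions together through beta-catenin and alpha-catenin, which connect them to actin. Protocadherins bind no catenins in this way, and the clustered ones are chosen isoform by isoform, each from its own promoter, to give neurons a surface identity. In the alpha and gamma clusters a variable exon is spliced to constant exons that all isoforms of the cluster share, whereas a beta gene is a single exon. Choice of a clustered promoter is known to involve CTCF, cohesin and DNA methylation. In the sympatho-adrenal lineage, N-cadherin (Cdh2) is the classical cadherin of neural crest derivatives.

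Libraries held 12334076 to 23683176 recovered reads outside the 126 genes that exceeded 1000 FPKM in any library. Between 0.217% and 2.21% of all recovered reads fell on those genes in AG and TI, but 86.1% to 98.6% in AGM and 64.5% to 97.3% in TIM. Summed FPKM of 8 adrenal cortex markers was 645.5 to 666.7 (AG), 4293 to 5373 (AGM), 0.0173 to 10.1 (TI) and 0.281 to 9.28 (TIM). That of 8 sympatho-adrenal markers was 90.04 to 129.5, 900.4 to 1700, 195.9 to 1606 and 197.3 to 3883 in the same order. Pancreas acinar markers summed to at most 2.50 FPKM in AG and 3.396 in TI, but reached 4.283e+05 in AGM and 3.586e+06 in TIM. All AG samples belonged to run 1, all AGM samples to run 2 and the TIM samples to runs 2 and 3, so for AGM and TIM against AG, effects of run and of genotype cannot be told apart. Whether a lower level in these bulk libraries reflects fewer cells of a type or less RNA per cell cannot be told apart. Members and background below were compared by limma on log2(FPKM + 0.1) with Benjamini-Hochberg adjustment over 15238 genes, and a gene was called at an adjusted p below 0.05.

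Cadherins and protocadherins were more often higher than lower in the tumors. In TI vs AG, 29 of 74 members were called higher and 10 lower, where 22.1% of all tested genes were called higher and 26.0% lower. The median difference of the members was 0.72 on the log2 scale and that of all tested genes was -0.02. In TIM vs AG, 32 members were called higher (21.1% of all genes) and 10 lower (27.2% of all genes), with a median of 0.99 against -0.05. With limma-voom 18 were higher, and the lower ones were 7 gamma, 2 type II, 2 unclustered, 1 alpha and 1 beta gene. In TIM vs AGM, 30 were called higher (28.0% of all genes) and 11 lower (32.6% of all genes), with a median of 0.57 against -0.01. TIM vs TI gave 11 members higher (9.69% of all genes) and 14 lower (11.7% of all genes), with a median of -0.11 against -0.03. In AGM vs AG, 6 members were called higher (13.1% of all genes) and 5 lower (12% of all genes), but 23 and 14 with the spread of these 2 groups only, 24 and 13 with array weights, and 3 and 11 with limma-voom. Comparisons that share a group share its libraries, so they are not independent of each other.

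The beta cluster held 17 of the 29 members called higher in TI vs AG and 15 of the 32 in TIM vs AG. Outside it, TI vs AG gave 4 higher and 2 lower of 14 classical cadherins and 3 and 2 of 10 unclustered protocadherins. The gamma cluster gave 2 and 6 of 20, the alpha cluster 2 and 0 of 6 and the other Cdh genes 1 and 0 of 2. In TIM vs AG these classes gave 4 and 2, 3 and 2, 5 and 6, 4 and 0, and 1 and 0. The shares of all tested genes called higher and lower were 22.1% and 26.0% in TI vs AG and 21.1% and 27.2% in TIM vs AG. The 22 beta genes lie in a row on chromosome 18 between 37397991 and 37657532 (GRCm39, GENCODE vM39). Their summed expression was 1.94 ± 0.164 FPKM in AG (SD, n = 3) and 2.15 ± 0.521 in AGM (n = 5), and 17.7 ± 5.65 in TI (n = 8) and 10.1 ± 1.95 in TIM (n = 8). The sums of all 16 tumors, from 6.69 upwards, lay above those of all 8 glands, which reached at most 2.66. In TI vs AG, 17 of 22 beta genes were called higher and none lower, with a median log2 difference of 2.00. The TI libraries of 17 beta genes lay above all AG libraries and those of none lay below, where this held for 21.2% and 26.1% of all tested genes. For TIM vs AG, 13 lay above and 1 below, against 15.6% and 24.4% of all tested genes. In TIM vs AG, 15 were called higher and none lower, with a median of 1.26, or 1.35 when Pcdhb1, at 0 in every AG library, was set at its floor of 3 reads per library. On reads scaled per library by limma-voom, where the median of all genes was -0.12 in TI vs AG and -0.28 in TIM vs AG, the numbers called higher were 16 and 9, with 1 lower in TIM vs AG.

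**Figure D1:**
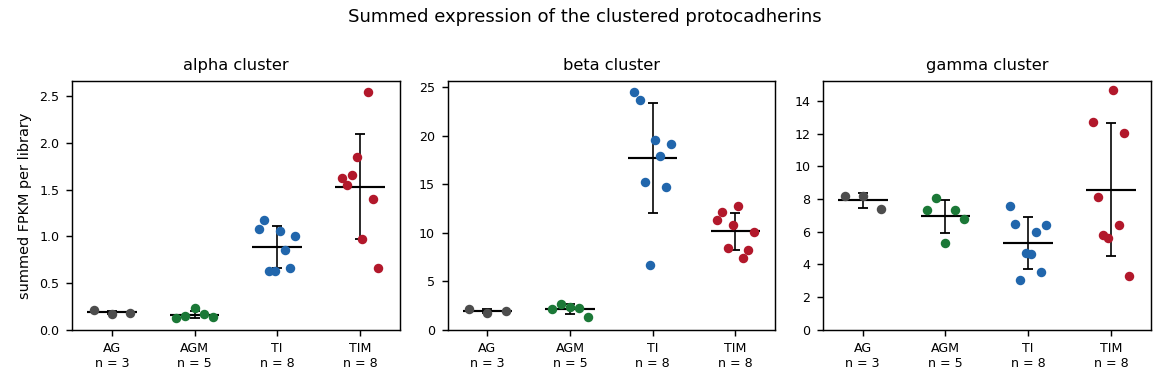
Summed FPKM of the alpha, beta and gamma cluster genes per library (y axis) by group (x axis). Points are libraries, lines are means and bars are SD. The beta sums of the 16 tumors lie above 6.6 FPKM and those of the 8 glands below 2.7, while the gamma sums of TI, AG and AGM overlap.

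Of the beta genes, Pcdhb5 and Pcdhb10 had the largest differences in TI vs AG on the log2(FPKM + 0.1) scale. Pcdhb5 was measured at 0.0343, 0.0323 and 0.0347 FPKM in AG and at 0.0558, 0.0493, 0.0810, 0.0523 and 0.0473 in AGM. In TI its lowest, median and highest values were 0.603, 1.91 and 4.09, and in TIM 0.299, 0.760 and 1.33. Every tumor therefore lay above every gland, and the log2 difference was 3.78 (SE 0.39, adjusted p = 2.95e-08) in TI vs AG and 2.68 (SE 0.39, adjusted p = 4.944e-06) in TIM vs AG. Pcdhb10 had 0.0425, 0.0233 and 0.0430 FPKM in AG, corresponding to 7 to 13 reads per library, and 0.104, 0.187, 0.183, 0.166 and 0.0545 in AGM. It reached 0.609, 1.97 and 2.54 in TI and 0.643, 1.81 and 2.50 in TIM as lowest, median and highest. The log2 difference was 3.77 (SE 0.36, adjusted p = 7.913e-09) in TI and 3.61 (SE 0.36, adjusted p = 1.608e-08) in TIM against AG, and the difference in TIM vs TI was -0.16 (95% interval -0.71 to 0.38). Pcdhb6 went from 0.0177 to 0.0276 FPKM in AG to medians of 1.28 in TI and 1.42 in TIM, with log2 differences of 3.459 and 3.35. These 3 genes remained called in both comparisons when any single library of the compared groups was left out.

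Other beta isoforms differed between TI and TIM, groups that also differed largely in run. Pcdhb3 was at 0.0517, 0.0351 and 0.0522 FPKM in AG, at 0.371, 1.71 and 2.23 (lowest, median, highest) in TI and at 0.276, 0.414 and 0.645 in TIM. It was lower in TIM than in TI by a log2 difference of -1.52 (SE 0.24, adjusted p = 0.000191). In TIM vs TI, 11 of 22 beta genes were called lower and 1, Pcdhb4, higher, with a median of -0.54. Among all tested genes, 11.7% were called lower and 9.69% higher. Pcdhb4, chosen after its values were seen, had medians of 0.0782 in TI and 0.330 in TIM, and its call in TIM vs TI was lost without any one of 8 libraries (TI 1, 3, 4, 5 and 7 and TIM 1, 3 and 5, adjusted p 0.0549 to 0.0695). Pcdhb17 and Pcdhb20 fell in TIM vs TI by 0.90 and 0.94 on the log2 scale. Pcdhb20 was called higher in TI vs AG (1.33, adjusted p = 9.779e-06), and its difference in TIM vs AG was 0.40 (95% interval -0.03 to 0.82). Pcdhb12 had log2 differences of 2.82 in TI and 1.80 in TIM against AG, where the call in TIM was lost with limma-voom and a pseudocount of 1 (adjusted p = 0.0809 and 0.0741), and its difference in TIM vs TI of -1.02 had an adjusted p of 0.0508. Pcdhb1, the first gene of the cluster and also chosen after its values were seen, was at 0 in all AG libraries, between 0.119 and 0.988 in TI and between 0 and 0.131 in TIM. This was at least 51.2-fold higher in TI than the 3 reads per library that a count of 0 allows in AG.

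**Figure D2:**
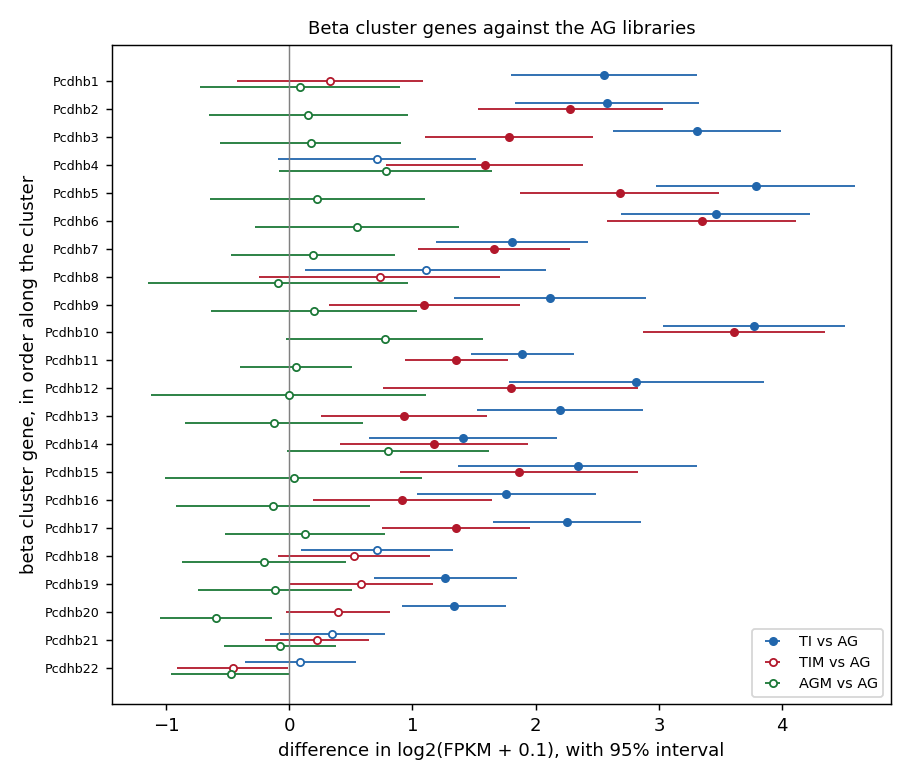
Differences in log2(FPKM + 0.1) of each beta cluster gene (y axis, in order along the cluster) in TI, TIM and AGM against AG (x axis, with 95% interval). Filled points were called and open points were not. The TI and TIM points of most genes lie to the right of 0, up to 3.78 for Pcdhb5, and no AGM point was called.

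The beta genes that were not called included much of its end. The last 5 genes, Pcdhb18 to Pcdhb22, were 5 of the 7 not called in TIM vs AG, and Pcdhb18, Pcdhb21 and Pcdhb22 were 3 of the 5 not called in TI vs AG. Pcdhb4, Pcdhb8, Pcdhb18, Pcdhb21 and Pcdhb22 were not called in TI vs AG, and Pcdhb1, Pcdhb8, Pcdhb18, Pcdhb19, Pcdhb20, Pcdhb21 and Pcdhb22 were not called in TIM vs AG. Pcdhb22 and Pcdhb20 were the leading beta isoforms in AG, with 0.410, 0.305 and 0.299 FPKM for Pcdhb22. Pcdhb22, chosen after its values were seen, ranged from 0.221 to 0.642 in TI and from 0.154 to 0.293 in TIM. Its log2 difference in TI vs AG was 0.09 (95% interval -0.36 to 0.54). In TI, Pcdhb5 led in 4 libraries, Pcdhb10 in 3 and Pcdhb9 in 1, and in TIM Pcdhb10 led in 6 of 8 libraries. The Pcdhb9 call in TIM vs AG (1.096, adjusted p = 0.01899) was lost without AG 2 or AG 3 (adjusted p 0.0522 to 0.0871). Likewise, the calls of Pcdhb13 without AG 1 or AG 2 (0.0682 to 0.0724) and of Pcdhb16 without any one of 7 libraries (AG 1, 2 and 3 and TIM 1, 2, 6 and 8, 0.0503 to 0.106) were lost in TIM vs AG. Of the 22 beta genes, 20 shared no exon base with another gene, and Pcdhb21 and Pcdhb22 shared 455 bases with each other.

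In the AGM glands the summed beta expression overlapped that of AG. None of the 22 was called in AGM vs AG and the median difference was 0.07, the same scale on which all genes had a median of 0. The 5 AGM sums ranged from 1.28 to 2.66 FPKM and those of AG from 1.77 to 2.096. Of the 22 genes, 5 were higher and 1 lower in every AGM library than in every AG library, where this held for 26.8% and 29.2% of all tested genes. Because 0 calls depend on the spread that is shared with the tumors, a fit with the spread of AGM and AG only gave 4 beta genes higher and 1 lower, array weights gave 6 higher and 2 lower, and limma-voom gave 2 lower.

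**Figure D3:**
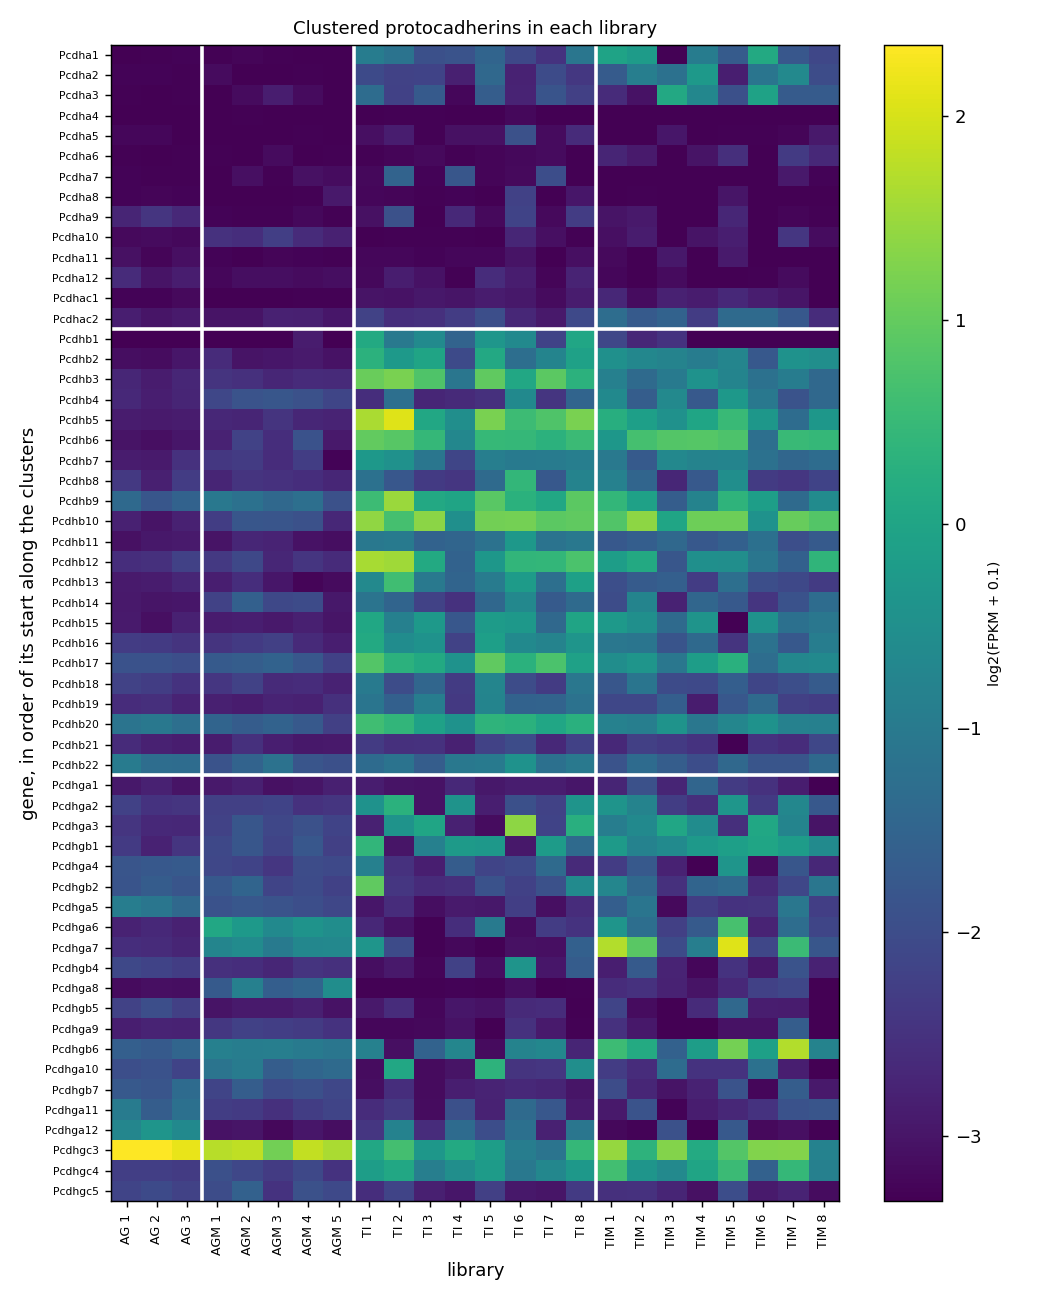
Level of the 57 clustered protocadherins (rows, in genomic order) in each of the 24 libraries (columns), as log2(FPKM + 0.1) by colour. White lines separate groups and clusters. Most beta rows are brighter in the TI and TIM columns than in AG and AGM, with rows such as Pcdhb22 as exceptions, and single alpha and gamma rows are bright in some tumors and dark in others.

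The gamma cluster (chromosome 18, 37794846 to 37975014) held genes that rose and genes that fell. Its summed expression was 7.92 ± 0.461 FPKM in AG, 6.95 ± 1.01 in AGM, 5.31 ± 1.56 in TI and 8.57 ± 4.05 in TIM. In TI vs AG, 2 of 20 tested genes were called higher and 6 lower, beside 22.1% and 26.0% of all tested genes. In TIM vs AG, 5 were called higher and 6 lower, beside 21.1% and 27.2% of all tested genes. The medians were -0.20 and -0.21. With limma-voom, 1 was higher and 7 lower in TI vs AG and 2 higher and 7 lower in TIM vs AG, and the medians were -1.09 and -1.39 beside -0.12 and -0.28 for all genes. Each gamma gene shared 28.4% to 67.4% of its exon bases with others, for most genes 2210 bases. Pcdhga4, with the highest share, shared 3245 bases, so the constant exons do not account for the whole range. How reads in the shared exons were assigned is not given in the sources used here. The gamma values therefore depend on how reads of the shared part were divided.

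Pcdhgc3 was the most abundant clustered protocadherin of the adrenal gland. It had 4.95, 5.00 and 4.34 FPKM in AG and 3.22, 3.42, 2.12, 3.48 and 2.99 in AGM. In TI its lowest, median and highest values were 0.355, 0.877 and 1.48, and in TIM 0.476, 2.00 and 2.64. All TI libraries lay below all glands, and the log2 difference was -2.43 (SE 0.39, adjusted p = 2.077e-05) in TI vs AG and -1.55 (SE 0.39, adjusted p = 0.00237) in TIM vs AG. Pcdhgc4, a C-type isoform required for survival of certain neurons and chosen after its values were seen, moved the other way. It was at 0.107, 0.107 and 0.0977 FPKM in AG, and at 0.380, 0.655 and 0.953 in TI and 0.240, 0.790 and 1.45 in TIM as lowest, median and highest. The log2 differences were 1.82 (SE 0.35, adjusted p = 0.0001428) and 2.08 (SE 0.35, adjusted p = 3.14e-05). Among the 5 C-type isoforms of the alpha and gamma clusters, Pcdhgc3 held 94.4% to 94.7% of the summed FPKM in AG and 89.7% to 92.4% in AGM, and it led with 42.5% to 56.9% in 7 TI libraries and 47.0% to 79.5% in TIM. In TI 7, Pcdhgc4 led with 54.8%. The higher level of Pcdhgc3 in TIM than in TI (0.88, adjusted p = 0.0336) was lost without any one of 9 of the 16 libraries (TI 3, 5, 6 and 7 and TIM 1, 3, 5, 6 and 7, adjusted p 0.0517 to 0.0739).

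The A and B isoforms of the gamma cluster differed from tumor to tumor. Among the 18 A and B isoforms, Pcdhga12 led in 3 of 3 AG libraries with 16.8% to 23.2% of their summed FPKM, and Pcdhga6 led in 4 of 5 AGM libraries. In TI, 5 different isoforms led in 8 libraries, and Pcdhga3 was first in 3 of them with up to 48.3%. In TIM, 4 different isoforms led, and Pcdhga7 was first in 3 with up to 36.7%. The effective number of isoforms, the exponential of the Shannon entropy of the isoform shares, was 12.7 to 13.1 (AG), 11.7 to 13.1 (AGM), 4.94 to 9.63 (TI) and 7.62 to 10.2 (TIM). The glands and the tumors did not overlap in this measure. Across the 20 tested gamma genes the median SD between libraries on the log2 scale was 0.115 in AG, 0.167 in AGM, 0.703 in TI and 0.709 in TIM, whereas it was 0.0907, 0.223, 0.378 and 0.495 across all tested genes. Other classes also varied more between tumors than all genes did in TI, with 0.634 for the unclustered protocadherins, 0.671 for the type II cadherins, 0.541 for the alpha cluster and 0.622 for the beta cluster, and in TIM with 0.724, 0.633, 0.648 and 0.492, where the beta value was at the level of all genes. The type I cadherins had 0.575 in TI and 0.404 in TIM, the latter below all genes. The 2 tested other Cdh genes had 0.435 and 0.941. All genes were not matched to the members in expression level.

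**Figure D4:**
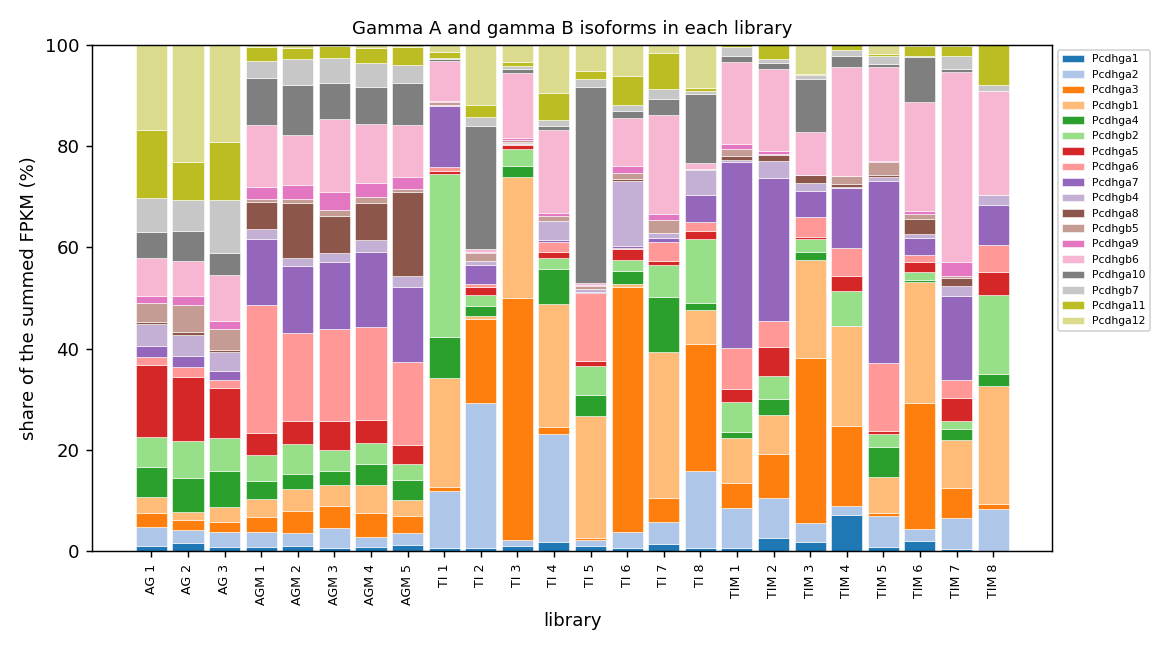
Share of each gamma A and gamma B isoform in their summed FPKM (y axis, percent) in each of the 24 libraries (x axis), stacked to 100%. The AG columns are alike, whereas in TI and TIM 1 isoform holds up to 48.3% and the leading isoform differs between tumors.

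Several A and B isoforms were called. Pcdhga12, chosen after its values were seen, was at 0.508, 0.677 and 0.543 FPKM in AG and at 0.00935 to 0.0260 in AGM. It ranged from 0.0442 to 0.470 in TI and from 0 to 0.201 in TIM. It fell in AGM vs AG by 2.50 and in TIM vs AG by 2.30 on the log2 scale (adjusted p = 0.000175 and 3.82e-05). Its fall in TI vs AG of 1.21 was lost without AG 2 (adjusted p = 0.0651) and with recomputed FPKM (0.0596). Pcdhga7 was at 0.0506 to 0.0661 FPKM (AG), 0.401 to 0.566 (AGM), 0.00191 to 0.679 (TI) and 0.130 to 4.12 (TIM). It was called higher in TIM vs AG (2.44, SE 0.77, adjusted p = 0.0111, but 0.0890 with limma-voom and 0.0527 with the spread of these groups only) and TIM vs TI (2.28, SE 0.57, adjusted p = 0.00712), and every AGM library lay above every AG library without a call (1.91, adjusted p = 0.0921). Pcdhgb6 was higher in TIM than in TI by 1.82 (SE 0.43, adjusted p = 0.00511), with medians of 0.352 and 0.921 FPKM, and its call in TIM vs AG was lost without AG 1 or AG 2 (adjusted p 0.0537 to 0.0612). Pcdhga6 and Pcdhga8, chosen after their values were seen, rose in AGM vs AG by 2.39 and 1.88 on the log2 scale. Pcdhga8 was at 0.0118 to 0.0181 FPKM in AG and 0.203 to 0.591 in AGM, and at most at 0.016 in TI and 0.131 in TIM. In all, 8 gamma genes were higher and 7 lower in every AGM library than in every AG library, of 20 tested, of which 2 were called higher and 2 lower. Over all tested genes these shares were 26.8% and 29.2%.

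The alpha cluster (chromosome 18, 37063237 to 37320716) was low in the glands and higher in the tumors. Summed expression was 0.187 ± 0.0177 FPKM in AG, 0.163 ± 0.0397 in AGM, 0.885 ± 0.222 in TI and 1.53 ± 0.565 in TIM. Of 6 tested genes, 2 were called higher in TI vs AG and 4 in TIM vs AG, and none lower. Among all tested genes, 22.1% and 21.1% were called higher in these comparisons, and 26.0% and 27.2% lower. Pcdha1 was at 0, 0.00178 and 0.00352 FPKM in AG and at most at 0.0061 in AGM, and it had 0.0775, 0.213 and 0.419 in TI and 0.00197, 0.317 and 0.986 in TIM as lowest, median and highest. The differences on the log2(FPKM + 0.1) scale were 1.66 (SE 0.50, adjusted p = 0.008776) and 2.06 (SE 0.50, adjusted p = 0.001653). With limma-voom both calls were lost (adjusted p = 0.0639 and 0.0678), and with a pseudocount of 1 that in TI vs AG (0.111). Pcdha2 had medians of 0.119 in TI and 0.350 in TIM, was higher in TIM than in TI (0.89, adjusted p = 0.022, but 0.0586 with recomputed FPKM, 0.112 with limma-voom and 0.0766 with the spread of these groups only), and its call in TI vs AG was lost without any one AG library (adjusted p 0.0597 to 0.0627). Pcdha3 was called in TIM vs AG (1.85, adjusted p = 0.003888) and had a difference of 1.18 in TI vs AG with an adjusted p of 0.0557. In AG, the 3 genes had at most 2 reads per library. Alpha genes shared 38.4% to 91.4% of their exon bases with others.

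Of 18 genes known to act on clustered promoters, 4 were called higher and 2 lower in TI vs AG. In TIM vs AG, 1 was called higher and 4 lower, and in AGM vs AG none higher and 11 lower. Over all tested genes, the shares were 22.1% higher and 26.0% lower in TI vs AG and 21.1% and 27.2% in TIM vs AG. For AGM vs AG these shares were 13.1% and 12%. CTCF (Ctcf), which binds the promoters, ranged from 2.87 to 3.14 FPKM in AG, 2.45 to 4.52 in TI and 0.796 to 3.85 in TIM, with log2 differences of 0.18 and -0.21 that were not called. The cohesin subunit Rad21 had differences of 0.55 and -0.06, and the chromatin regulators Smchd1 and Setdb1 of 0.21 and 0.48 in TI, all not called. Rest, a repressor of neuronal genes, fell from 0.843 to 0.967 FPKM in AG to at most 0.177 in TI and 0.216 in TIM (adjusted p = 4.85e-08 and 5.71e-08). The DNA methyltransferase Dnmt3a rose in TI vs AG by 1.64 on the log2 scale (adjusted p = 0.00415), and the demethylases Tet1 and Tet3 by 1.56 and 1.05. Tet1 was also called in TIM vs AG (1.02, adjusted p = 0.0032). Mouse Mycn had medians of 0.580 FPKM in AG, 0.689 in AGM, 7.67 in TI and 2.97 in TIM. The part of these regulators in the protocadherin levels was not tested.

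Among the type I cadherins, N-cadherin (Cdh2, chromosome 18) was the main one in every group. It had 2.19, 2.17 and 2.18 FPKM in AG and 1.53, 1.60, 1.84, 2.01 and 1.503 in AGM. Its lowest, median and highest values were 2.06, 3.20 and 7.21 in TI and 2.62, 3.19 and 4.78 in TIM. The log2 difference was 0.62 in TI vs AG (95% interval 0.07 to 1.16, adjusted p = 0.0577) and 0.63 in TIM vs AG (0.09 to 1.18, adjusted p = 0.051), and neither was called. TIM exceeded AGM by 0.98 (SE 0.22, adjusted p = 0.0005958), and no TIM library overlapped an AGM library. R-cadherin (Cdh4) was at 0.191 to 0.212 FPKM in AG and had medians of 0.546 in TI and 0.692 in TIM, with differences of 1.25 and 1.22 that were not called (adjusted p = 0.0611 and 0.0669). M-cadherin (Cdh15), known from muscle, ranged from 0.0449 to 2.54 in TIM and from 0.00506 to 0.178 in TI, and was higher in TIM than in TI by 1.54 (adjusted p = 0.0133, but 0.0546 with the spread of these groups only). Its call in TIM vs AG (1.56, adjusted p = 0.02843) was lost without any one AG library (adjusted p 0.0719 to 0.0822). E-cadherin (Cdh1), the cadherin of epithelia and chosen after its values were seen, reached at most 0.225 FPKM in any library and was called in none of the comparisons with AG.

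Type II cadherins were higher in the tumors as a sum. Without Cdh7, their summed expression was 1.27 ± 0.0589 FPKM in AG, 2.08 ± 1.06 in AGM, 5.38 ± 1.099 in TI and 6.39 ± 1.72 in TIM. Of 9 tested, 4 were called higher and 2 lower in TI vs AG and 3 higher and 2 lower in TIM vs AG, where the higher ones in both were Cdh22, Cdh24 and Cdh8. The shares of all tested genes were 22.1% and 26.0% in TI vs AG and 21.1% and 27.2% in TIM vs AG. Cdh22, a cadherin known from brain, had 0.0957, 0.0898 and 0.160 FPKM in AG and 0.383, 0.306, 0.491, 0.328 and 0.397 in AGM. It reached 0.866, 2.15 and 4.12 in TI and 0.381, 4.14 and 6.54 in TIM (lowest, median, highest), and only TIM 6 lay within the AGM range. The log2 difference was 3.23 (SE 0.55, adjusted p = 4.302e-05) and 3.85 (SE 0.55, adjusted p = 4.398e-06). Cdh24 had 0.174, 0.117 and 0.138 FPKM in AG, 0.632, 1.05 and 2.22 in TI and 0.166, 0.393 and 0.864 in TIM. It was higher in TI than in AG by 2.32 (SE 0.33, adjusted p = 3.344e-06) and in TIM than in AG by 1.16 (SE 0.33, adjusted p = 0.005519, but 0.0515 with a pseudocount of 1), and lower in TIM than in TI (-1.17, SE 0.24, adjusted p = 0.001938). Cdh8, known from neurons, was at 0 in all AG libraries and at 0.123, 0.00141, 0.101, 0.0731 and 0 FPKM in AGM. In TI it ranged from 0.0946 to 5.36 (mean 1.48) and in TIM from 0 in TIM 5 and TIM 7 to 3.12 (mean 1.37), which was at least 406-fold and at least 374-fold higher than the floor of 3 reads per library in AG (adjusted p = 0.007781 and 0.01527). Without TI 4 the first bound was 254-fold. Both calls were lost with limma-voom (adjusted p = 0.292 and 0.424) and a pseudocount of 1 (0.0504 and 0.0565), and that in TIM vs AG also with the spread of the compared groups only (0.0518).

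Cdh11 and Cdh6 moved the other way. Cdh11, a cadherin of mesenchymal cells that was chosen after its values were seen like Cdh6, had 0.540, 0.481 and 0.535 FPKM in AG and 0.116, 0.248, 0.165, 0.195 and 0.0523 in AGM. It was at 0, 0.0869 and 0.164 in TI and 0.0180, 0.0923 and 0.222 in TIM as lowest, median and highest. All AGM and tumor libraries lay below all AG libraries, and the log2 differences were -1.80 in TI, -1.72 in TIM and -1.33 in AGM against AG (adjusted p = 3.567e-05, 6.339e-05 and 0.00545). Cdh6 fell in TIM vs AG by 1.39 (adjusted p = 0.003868), while its calls in TI vs AG and AGM vs AG were lost without AG 1 or AG 2, and in TI vs AG also without AG 3 or TI 7 (adjusted p 0.0501 to 0.0897). Beside these values, of 6 fibroblast markers 1 was called higher and 3 lower in TI vs AG and in TIM vs AG, and 0 higher and 2 lower in AGM vs AG. Their summed FPKM was 17.1 to 20.5 (AG), 7.20 to 14.5 (AGM), 7.87 to 78.0 (TI) and 5.39 to 37.0 (TIM), no marker was at 0 throughout a group, and their part in the cadherin values was not tested.

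Single type II genes had values of another kind. Cdh7 was at 582 and 824 FPKM in TIM 2 and TIM 3, at 0.377 in TI 2 and at most at 0.0149 in every other library, and it was called in no comparison. Cdh9 had 1 read in each AG library and at most 1 in each TI library, but 83 to 714 reads in AGM, or 2.39, 2.20, 0.465, 0.594 and 0.280 FPKM. Its difference in AGM vs AG on the log2(FPKM + 0.1) scale was 3.24 (SE 0.83, adjusted p = 0.00669, but 0.0533 with limma-voom). In TIM it was at 0 in 4 libraries and at up to 1.18 FPKM in the other 4. Cdh23, a tip-link cadherin of hair cells and counted among the other Cdh genes, had 1 read in each AG library and at most 2 in TI, but 981 to 4429 in AGM, which gave 3.21, 2.85, 0.721, 0.672 and 1.60 FPKM and a difference of 3.99 (SE 0.56, adjusted p = 1.62e-05, but 0.0665 with limma-voom). In TIM it ranged from 0 to 0.5258 FPKM, and the call in TIM vs AG (1.54) was lost without any one AG library (adjusted p 0.0533 to 0.0537). These libraries are those in which the genes above 1000 FPKM held most of the recovered reads, and the part of that in the values was not tested.

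Promoters of Cdh24 and Pcdh18 are shown as examples of members that rose and fell in both tumor types. The sequences are from the RefSeq promoter table (GRCm39, minus strand, 5′ to 3′, limited to the bases before the start of the GENCODE gene), and capitals mark CpG dinucleotides, the sites of DNA methylation. The Cdh24 stretch lies at chr14:54878832-54879071 and holds 21 CpG in 240 bases, and the Pcdh18 stretch lies at chr3:49711831-49712015 and holds 19 CpG in 185 bases.
Cdh24: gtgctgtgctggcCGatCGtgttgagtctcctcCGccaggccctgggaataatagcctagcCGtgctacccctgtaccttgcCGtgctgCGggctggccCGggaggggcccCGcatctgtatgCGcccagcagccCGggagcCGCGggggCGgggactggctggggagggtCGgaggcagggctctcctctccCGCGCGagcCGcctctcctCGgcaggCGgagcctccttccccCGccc
Pcdh18: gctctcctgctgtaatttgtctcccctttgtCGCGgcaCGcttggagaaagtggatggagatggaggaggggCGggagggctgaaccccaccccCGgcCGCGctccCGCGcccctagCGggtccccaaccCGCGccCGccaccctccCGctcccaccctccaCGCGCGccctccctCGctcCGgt
Promoters were read for 22 members, of which 6 were called in the same direction in TI vs AG and TIM vs AG. Of their windows of 300 bases, Cdh22 held 38 CpG and Cdh24 held 30 CpG, and 4.95% and 11.7% of all 32851 promoters held as many or more. Those of Cdh8 and Pcdh8 held 21 and 14 CpG, and 24.8% and 36.3% of all promoters held as many or more. Those of the genes that fell, Pcdh18 and Cdh6, held 23 and 8 CpG (21.5% and 48.6%). The median over all promoters was 7. CACGTG, the core motif of MYC family binding, read the same on both strands, was in none of these 6 windows, in 1 of the 25 promoters of these members and in 7.15% of all promoters. The looser CANNTG, which includes CACGTG, was in 15 of the 25 and in 72.3% of all promoters.

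T-cadherin (Cdh13), which lacks a cytoplasmic tail and is bound to the membrane by a lipid anchor, led the other Cdh genes in AG. It had 0.107, 0.126 and 0.170 FPKM in AG and 0.308 to 0.374 in AGM, with medians of 0.391 in TI and 0.402 in TIM. All AGM libraries lay above all AG libraries, but the difference of 0.93 was not called (adjusted p = 0.159). The call in TI vs AG (1.12, adjusted p = 0.04097) was lost without any one of 7 libraries (AG 1, 2 and 3 and TI 4, 6, 7 and 8, adjusted p 0.0523 to 0.128). Cdh26 stayed at or below 0.122 FPKM in every library and was not tested.

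Among the unclustered protocadherins, Pcdh1 rose and Pcdh12 fell. Pcdh1, a protocadherin of epithelial and neural cells, had 0.672, 0.560 and 0.678 FPKM in AG and 1.79, 1.27, 1.74, 2.28 and 2.61 in AGM. It reached 2.13, 3.23 and 5.66 in TI and 1.45, 3.25 and 4.24 in TIM as lowest, median and highest, so AG lay below every other library. The log2 differences were 2.16 in TI, 2.04 in TIM and 1.44 in AGM against AG (adjusted p = 4.18e-06, 9.17e-06 and 0.003448). Its difference in TIM vs AGM (0.60, adjusted p = 0.04987) was lost without any one of 10 of 13 libraries (AGM 1 to 4 and TIM 1, 2, 3, 4, 5 and 7, adjusted p 0.05 to 0.148). Pcdh10, a delta protocadherin of neurons, had 0.0604, 0.0556 and 0.0694 FPKM in AG and medians of 0.562 in TI and 0.254 in TIM. It was called in TI vs AG (2.11, SE 0.56, adjusted p = 0.003478), and its difference in TIM vs AG was 1.32 (adjusted p = 0.0565). Pcdh8, chosen after its values were seen, had medians of 0.182 and 0.183 in TI and TIM against at most 0.00837 in AG, and its calls were lost without any one AG library, and in TI vs AG also without TI 7 (adjusted p 0.0504 to 0.0835).

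Pcdh12, the endothelial protocadherin, was at 0.772, 0.674 and 0.664 FPKM in AG and 0.737, 0.631, 0.890, 0.799 and 0.927 in AGM. In the tumors it was at 0.0774, 0.118 and 0.272 (TI) and 0.0343, 0.0828 and 0.237 (TIM), so no tumor overlapped a gland. The log2 differences were -1.82 (SE 0.26, adjusted p = 4.222e-06) in TI and -2.00 (SE 0.26, adjusted p = 1.11e-06) in TIM against AG, and 0.15 (95% interval -0.43 to 0.73) in AGM. While 26.0% of all tested genes were called lower in TI vs AG and 27.2% in TIM vs AG, 5 and 6 of 6 endothelial markers were. None of these markers was called higher. Their summed FPKM was 18.3 to 19.8 (AG), 16.4 to 21.7 (AGM), 1.86 to 16.5 (TI) and 1.45 to 8.58 (TIM), no marker was at 0 throughout a group, and their part in the Pcdh12 values was not tested. Pcdh18, chosen after its values were seen, had 0.264, 0.225 and 0.235 FPKM in AG and was lower in every other library. It fell by 1.11 in TI, 1.21 in TIM and 0.74 in AGM on the log2 scale (adjusted p = 8.477e-06, 2.657e-06 and 0.00502).

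**Figure D5:**
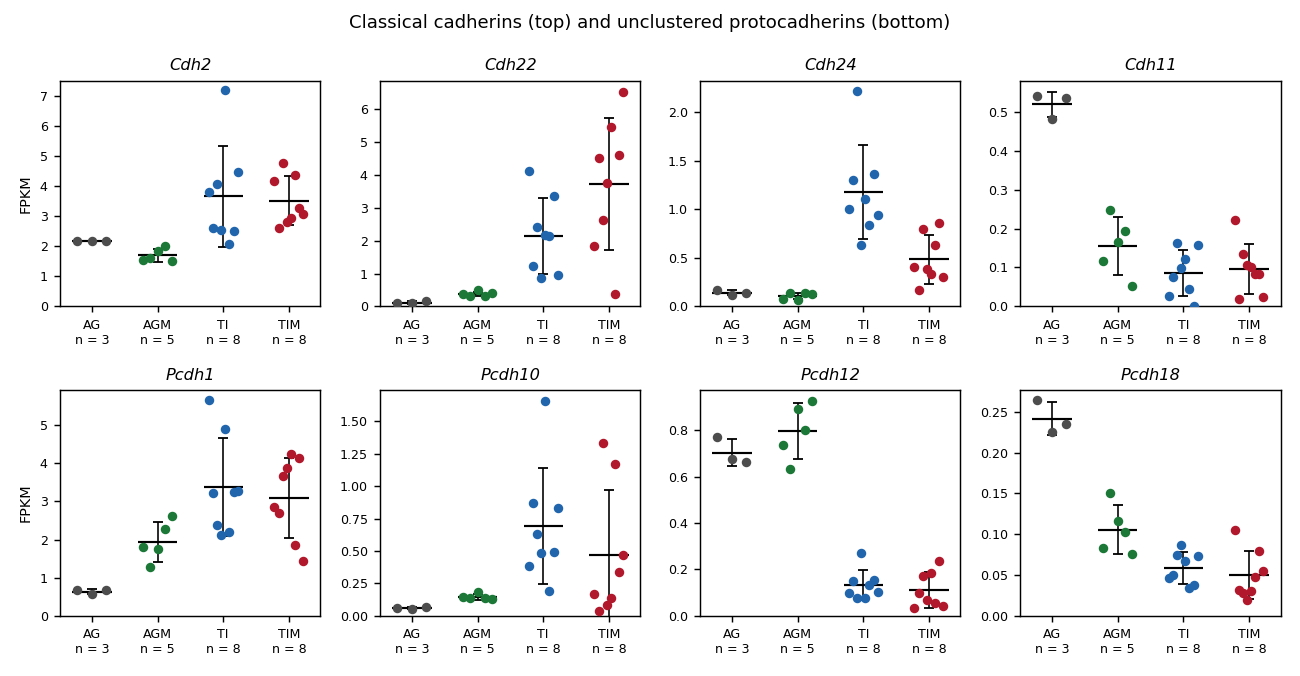
FPKM (y axes, each from 0) of 4 classical cadherins (top) and 4 unclustered protocadherins (bottom) by group (x axis). Points are libraries, lines means and bars SD. Cdh22, Cdh24, Pcdh1 and Pcdh10 are higher in TI than in AG, Pcdh12 is lower in every tumor than in every gland, and Cdh11 and Pcdh18 are lower in AGM and the tumors than in AG.

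Alpha-catenins moved in opposite directions. Of 11 tested catenins and cytoplasmic partners, 3 were called higher and 4 lower in TI vs AG, and 3 higher and 6 lower in TIM vs AG. For this list and those that follow, the shares of all tested genes were 22.1% and 26.0% in TI vs AG and 21.1% and 27.2% in TIM vs AG. The neuronal alpha-catenin Ctnna2 rose from 0.0547 to 0.0936 FPKM in AG to 1.39 to 2.44 in TI and 1.82 to 3.66 in TIM, by 3.57 and 3.89 on the log2 scale (adjusted p = 6.21e-12 and 1.3e-12). The widespread alpha-catenin Ctnna1 fell from 10.1 to 10.6 FPKM in AG to 1.004 to 3.43 in TI and 0.577 to 2.62 in TIM (-2.57 and -2.93). Delta-catenin (Ctnnd2), a neuronal member of the p120 family, rose by 2.17 and 2.68, and beta-catenin (Ctnnb1) fell by 1.58 and 1.57. Ctnnb1 also fell in AGM vs AG, by 0.90 (adjusted p = 0.00188).

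Other partners showed both directions. Of 8 transcriptional repressors of E-cadherin, 2 were called higher and 3 lower in TI vs AG, and 0 higher and 3 lower in TIM vs AG, with Zeb2 falling by 2.20 and Snai1 by 1.58 in TI. Of 12 signalling partners of protocadherins, 2 were called higher and 3 lower in TI vs AG and 3 higher and 4 lower in TIM vs AG. Within the WAVE complex, which drives actin branching and binds protocadherin tails, Wasf1 rose by 2.51 and Abi2 by 1.51 in TI vs AG, while Cyfip1 fell by 1.72. Of 9 proteases that shed cadherins, 1 was called higher and 2 lower in TI vs AG and 0 higher and 3 lower in TIM vs AG. Of 24 other members of the cadherin superfamily, 17 were tested, and 5 were higher and 3 lower in TI vs AG and 9 higher and 5 lower in TIM vs AG. The receptor kinase Ret, which carries cadherin-like domains, rose by 4.60 and 5.57 on the log2 scale, the neuronal seven-pass cadherin Celsr3 by 3.87 and 3.59. Fat1, a giant cadherin of many tissues, fell by 2.46 and 2.85, and Cdhr5, a microvillus cadherin, by 3.398 and 3.44.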

How the data were processed

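RNA-seq values of 24 libraries were read from 1 table of the whole series. Per the submitters' processing notes and the methods, the authors trimmed reads with cutadapt 2.8, aligned them with HISAT2 2.1.0 to mm39, used SAMtools 1.10, counted with featureCounts 2.0.0 (settings and annotation not given in the sources used here), corrected a batch effect with ComBat-seq, and normalized with edgeR 3.40 (TMM). Deposited were FPKM values of 21833 protein-coding genes, with gene length. The authors' columns of log2 fold change, p and FDR for AGM, TI and TIM against AG were not used. 0 columns were left unmapped. Columns carried no sample number, so run, zygosity and location per library are unknown, and p-values measure only the spread between these libraries.

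FPKM times length were whole multiples of 1 step for 100% of values (tolerance 0.01), which returned read numbers after the batch correction. They are not independent molecules, and floors of 3 reads cover counting error only. limma 3.58.1 (R 4.3.3; intensity trend) was fitted to log2(FPKM + 0.1) of 15238 genes that reached 0.1 FPKM in 3 or more libraries, with all 24 libraries sharing the spread and no covariates. Differences on this scale understate the change of low genes. Benjamini-Hochberg adjustment covered all tested genes. The code was tested on simulated data. Intervals are 95% intervals from this fit.

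Members were named if a group mean reached 1 FPKM, if among the 3 highest of their class, or if above 1000 FPKM. Other members given with values, such as Pcdhga12 and Pcdhb22, did not meet this rule and were chosen after their values were seen. Listed genes were named if called with the largest difference in TI vs AG (at most 4 a list), or if tied to the clusters. The members and lists were chosen with earlier results of these data known. Alternatives were another pseudocount, other filters, recomputed FPKM, limma-voom, the spread of the compared groups alone, array weights and leaving out each library, of which leaving out TI and TIM libraries was added after seeing the data. Positions came from GENCODE vM39 on GRCm39, where 90 of 90 member identifiers were found. Promoter sequence of members on chromosome 18 was not used here.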

Additional observations from a re-analysis of the deposited data

Results flagged for a closer look

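Within groups of 4 to 10 libraries, 16 of 105 group values held 1 library that stood apart from the others by Dixon's criterion, all on the high side. The criterion flags about 1 in 20 groups by chance if values are independent and normally distributed. Here it was applied to FPKM without log scaling, and to class sums along with their own members. The number flagged therefore cannot be set against that rate. TI 4 was the library in 4 of them and TI 5 in 3. The causes were not tested.

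In TI, Cdh2 reached 7.214 FPKM in TI 5 (next 4.469), Cdh4 reached 3.541 in TI 6 (next 1.039) and Cdh24 reached 2.216 in TI 3 (next 1.37). Cdh8 stood at 5.363 in TI 4 (next 2.184), Cdh13 at 1.731 in TI 4 (next 0.4921) and the summed other Cdh genes at 1.82 in TI 4 (next 0.5636). Pcdh12 was at 0.2715 in TI 4 (next 0.1524). Cdh7 was at 0.3774 in TI 2 (next 0.01493). Pcdh10 reached 1.655 in TI 5 (next 0.8695), Pcdha2 0.2784 in TI 5 (next 0.1473) and Pcdhga7 0.6795 in TI 1 (next 0.2361).

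In TIM, Cdh15 reached 2.541 FPKM in TIM 5 (next 0.8294). In AGM, Cdh26 was at 0.02456 and Pcdha2 at 0.0115 in AGM 1 (next 0.003965 and 0.002154), and Pcdh10 at 0.1819 and Pcdhb5 at 0.08104 in AGM 3 (next 0.142 and 0.05581).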

How the results depend on the processing

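No call of a member reversed under any alternative, and 95 of 158 calls held in every one of them. The numbers of members called were most dependent on the processing in AGM vs AG, where 6 were higher and 5 lower: 3 and 11 with limma-voom, 11 lower with recomputed FPKM, 23 and 14 with the spread of these groups only, and 24 and 13 with array weights. Recomputed FPKM and limma-voom gave a median of all genes of -0.39 and -0.48 in AGM vs AG, -0.22 and -0.28 in TIM vs AG, -0.17 and -0.20 in TIM vs TI and 0.22 and 0.28 in TIM vs AGM, where it was 0, -0.05, -0.03 and -0.01 as reported. The share of called genes that were higher changed from 52.1% to 22.4% and 15.4% in AGM vs AG, from 43.6% to 30.7% (limma-voom) in TIM vs AG, from 45.2% to 31.1% and 24% in TIM vs TI, and from 46.2% to 56.9% in TIM vs AGM.

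With limma-voom, 18 members were higher in TIM vs AG, 7 higher in TIM vs TI and 7 lower in TIM vs AGM. With a pseudocount of 1, 7 were higher in TIM vs TI. With the spread of the compared groups only, 5 were higher in TIM vs TI, and with array weights 45 were higher in TI vs AG. A filter of 1 FPKM left 21 members and gave 14 higher and 1 lower in TI vs AG, 16 and 1 in TIM vs AG, 3 and 0 in AGM vs AG, 4 and 7 in TIM vs TI, and 14 and 3 in TIM vs AGM, since fewer members were tested. The cause of the other changes was not tested. Leaving out 1 library gave 25 to 32 higher and 7 to 11 lower in TI vs AG, 23 to 37 and 8 to 12 in TIM vs AG, 5 to 6 and 3 to 5 in AGM vs AG (3 without AG 1 or AG 2), 7 to 12 and 13 to 16 in TIM vs TI (7 without TI 3 or TIM 1), and 28 to 32 and 7 to 11 in TIM vs AGM (7 without AGM 2 or AGM 4).

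Besides those given with the genes, settings that kept all libraries also ended calls of Pcdhb4 and Pcdhgc3 (TIM vs TI), Pcdhb9, Pcdhb13, Pcdhb16, Pcdhgb6, Cdh15 and Cdh23 (TIM vs AG), Cdh6, Cdh13 and Pcdha2 (TI vs AG), Pcdh1 (TIM vs AGM) and Pcdh8 (both tumors vs AG). No paired analysis was possible because the columns carry no sample numbers that match the labels. Depth limits the lowest members: between 60 and 76 of 90 had at least 10 reads in a library, and the shared exons of alpha and gamma genes and the batch correction limit what a value of 1 isoform means.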

Other observations

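The 12 alpha isoforms without the C-type ones also differed in which isoform led. Pcdha9 led in 2 of 3 AG libraries and Pcdha10 in 5 of 5 AGM libraries with 40.1% to 71.1% of their summed FPKM. In TI, 5 different isoforms led in 8 libraries, and Pcdha1 was first in 3. In TIM, Pcdha1 led in 4 libraries, and the leading isoform held 33.2% to 70.5%. The levels behind these shares were low, and Pcdha10 reached at most 0.107 FPKM in AGM.

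The evenness of the 22 beta isoforms in the tumors overlapped that in both kinds of gland, while AG and AGM did not overlap each other. Their effective number was 12.9 to 14.8 (AG), 15.7 to 17.1 (AGM), 14.5 to 18.6 (TI) and 13.6 to 17.5 (TIM), and the leading beta isoform held 11.3% to 17.3% in TI and 10.9% to 23.8% in TIM. No test was made of this description.

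Of the 16 members that were not tested, none exceeded 0.260 FPKM in any library. The highest values were those of Pcdhga1 in TIM (0.260) and Pcdha5 in TI (0.166), and the intestinal cadherin Cdh17 and the kidney cadherin Cdh16 reached at most 0.0681 and 0.0474 in TI.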
